A study of Mus musculus with 24 samples.

Results

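The NRF2 antioxidant genes described here are 10 genes chosen by symbol: Nfe2l2, Keap1, Nqo1, Hmox1, Gclc, Gclm, Srxn1, Txnrd1, Gsr and Cat. All 10 were found among the 25239 genes of a table of TPM values (a transcript's share of a library's RNA, corrected for its length), and all 10 passed the filter on low values and were tested. NRF2, the protein made from Nfe2l2, is a transcription factor that the adaptor protein KEAP1 holds in the cytoplasm and passes on for degradation. Oxidants and electrophiles modify KEAP1, and NRF2 then accumulates, pairs with small MAF proteins and binds antioxidant response elements near its targets. The targets make glutathione, reduce thioredoxin, quinones and peroxides and break down heme, and in lung cancers the pathway is known for activating mutations.

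RNA was measured in 24 libraries from 6 cell lines of mouse small cell lung cancer (SCLC), with 3 lines of Type D (4711-1, 4711-18 and 4716-11, called replicates 1, 2 and 3) and 3 of Type V (4711-11, 4716-10 and 4716-14, likewise). In all lines tumors had been started by an adenovirus carrying Cre under the CMV promoter in Rb1 fl/fl, Trp53 XTR/XTR, Rbl2 fl/fl, Rosa26 FlpO-ER mice, so all groups, Control included, share the Cre-exposed Rb1 and Rbl2 alleles, and each line came from a single tumor. Each line was taken after 72 h of vehicle (Control), of 4-hydroxytamoxifen, which removes the gene trap and turns p53 back on (Restored), or of either with cyclosporin A, a drug that binds cyclophilins (Control + CsA and Restored + CsA). No library had 4-hydroxytamoxifen without restoration, so effects of the drug or of FlpO-ER and those of p53 cannot be told apart here, and restoration below means the whole treatment. By the study's own description Type D lines die after p53 returns and Type V lines stay viable. The study places the start of that death near the 72 h taken here and reports that CsA protected Type D lines from it. The part of dying or protected cells in the values below was not tested. The replicates of a group are different lines, with 3 per group in 8 groups. In the reported fit p-values measure the spread between lines within a group, pooled over the 8 groups of both types. Where the cell line was added to the fit as a block, they measure how changes differ from line to line.

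Trp53 itself was at 10.5 to 15.3 TPM in the 12 libraries without restoration and at 181 to 253 TPM in the 12 with it. Of the neuroendocrine genes that mark SCLC, Chga was listed at 0 in all 24 libraries and Calca reached 0.105 TPM, whereas Ncam1 was at 4.46 to 27.3 TPM and Insm1 reached 49.6 TPM. Of 7 fibroblast markers, summed levels were 227 to 500 TPM in Type V Control and 0.634 to 1.34 TPM in Type D Control, and in Type V they were 89.1 to 194 TPM in Restored and 75.6 to 130 TPM in Restored + CsA, with Col1a2 falling from a mean of 90 to 8.29 TPM between Control and Restored (-2.86 log2, limma, adjusted p = 0.00594). Of 10 macrophage markers, which matter here because macrophages express Hmox1 highly, Marco and C1qa were at 0 in all libraries, Adgre1 was at most 0.0449 TPM and Ptprc at most 0.154 TPM. The summed macrophage list was 232 to 405 TPM in Type D Control, 141 to 226 TPM in Type D Restored, 44.8 to 156 TPM in Type V Control and 91.5 to 174 TPM in Type V Restored, mostly from Cd14 and Mrc1, while Cd68, a lysosomal protein gene, rose with restoration, with Type D means of 9.12 TPM before and 39.5 TPM after and Type V means of 8.46 and 22.5 TPM. The part of these cells or genes in the results below was not tested.

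The core of the antioxidant response element is written TGACNNNGC, where N is any base. RefSeq promoter windows on GRCm38.p6, from 250 bases before to 50 after a transcription start, were at hand for 7 of the 10 genes in 9 windows, with 3 for Txnrd1. Hmox1, Gclc and Gsr had no window and were not searched. The core was found on either strand in 4 of these 9 windows, from 4 genes, and in 12.4% of all 32851 windows. The matches are shown because they are the letters NRF2 is known to read, with the 9-letter core in capitals and 10 flanking bases on each side, 5′ to 3′ on the strand that carries the core.

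Nfe2l2, chr2:75704885-75704913, minus strand: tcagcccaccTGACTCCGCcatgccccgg
Gclm, chr3:122245413-122245441, minus strand: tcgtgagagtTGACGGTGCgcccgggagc
Txnrd1, chr10:82859104-82859132, minus strand: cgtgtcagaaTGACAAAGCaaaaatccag
Srxn1, chr2:152105542-152105570, minus strand: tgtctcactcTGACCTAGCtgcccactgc

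A match is a string of letters and no evidence of binding. The windows of Keap1, Nqo1 and Cat and the other windows of Txnrd1 held no match, which says only that the core is not in those windows. In the GENCODE M21 annotation of GRCm38 the protein-coding genes with the highest changes in Type D after restoration lie at chr8:75093621-75100589 on the plus strand (Hmox1), chr9:77754535-77794485 on the plus strand (Gclc), chr10:82833951-82897712 on the plus strand (Txnrd1) and chr2:152105516-152111376 on the plus strand (Srxn1).

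The comparison of Control cells asks whether the pathway already differed between the types before p53 returned. The means of Nfe2l2, Gsr and Cat were higher in Type D and that of Hmox1 was lower, but none of the 10 genes passed the test. In Control, the Nfe2l2 levels of the Type D lines were 186, 349 and 180 TPM, those of the Type V lines 52, 96.7 and 137 TPM. Every Type D line lay above every Type V line. The change of 1.35 log2 (SE 0.50, limma, adjusted p = 0.0808) did not pass the threshold, an adjusted p under 0.05 together with a change of at least 1 log2. Gsr, the glutathione reductase that returns oxidized glutathione to its reduced form, had levels of 346, 233 and 281 TPM in the Type D lines against 185, 172 and 185 TPM in the Type V lines. Cat, which encodes the hydrogen peroxide enzyme catalase, was at 127, 360 and 157 TPM in Type D and at 103, 99.98 and 121 TPM in Type V. For both genes the groups did not overlap, with differences of 0.64 log2 (limma, adjusted p = 0.0967) for Gsr and 0.83 log2 (limma, adjusted p = 0.181) for Cat. Hmox1, the heme-degrading heme oxygenase 1, lay the other way, at 215, 96.9 and 115 TPM in Type D Control and 236, 348 and 486 TPM in Type V Control. Its groups did not overlap either, and the difference of -1.35 log2 did not pass (limma, adjusted p = 0.23).

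None of the 10 genes was called between the types in Control, where 8.83% of all tested genes were called. By limma 3 of the 10 had an unadjusted p under 0.05 there, and groups did not overlap for 4 of the 10 against 31.4% of all tested genes. None was called in Control + CsA (9.88% of all tested genes), in Restored (9.44%) or in Restored + CsA (7.82%), where 3, 2 and 1 of the 10 had an unadjusted p under 0.05. Gsr stayed between 0.64 and 0.68 log2 higher in Type D in the 4 comparisons, with adjusted p of 0.0741 to 0.0967 by limma. Without Type V replicate 2 (4716-10), Hmox1 and Txnrd1 were called higher in Type D Restored than in Type V Restored, at 1.95 and 1.20 log2 (limma, adjusted p = 0.0221 and 0.00399). That line had the highest Type V Restored level of both genes (2593 and 462 TPM), so leaving it out lowers the Type V mean. Calls among the further pathway and antioxidant genes listed below also rose from 9 to 18 without it.

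The levels in Control set the scale of the later changes. Per length, the most abundant of the 10 in Type D Control was Gsr, at 286 ± 57.1 TPM (SD, n = 3), and the least was Nqo1, at 11.5 ± 15.1 TPM. In Type V Control the order ran from Hmox1 at 357 ± 125 TPM to Keap1 at 32.4 ± 7.18 TPM. In Type D Control Nfe2l2 (238 ± 96 TPM), Txnrd1 (215 ± 5.3 TPM), Cat (215 ± 127 TPM), Gclc (149.5 ± 47.5 TPM), Gclm (145 ± 34.4 TPM) and Hmox1 (142 ± 63.5 TPM) followed Gsr. No neighbors in that series were farther apart than the larger SD of the pair. Srxn1 (56.2 ± 18 TPM) lay below them. Keap1 was the steadiest gene, between 24.7 and 42.1 TPM in all 24 libraries, a 1.7-fold range against 446-fold for Nqo1 and 38.1-fold for Hmox1.

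**Figure D1:**
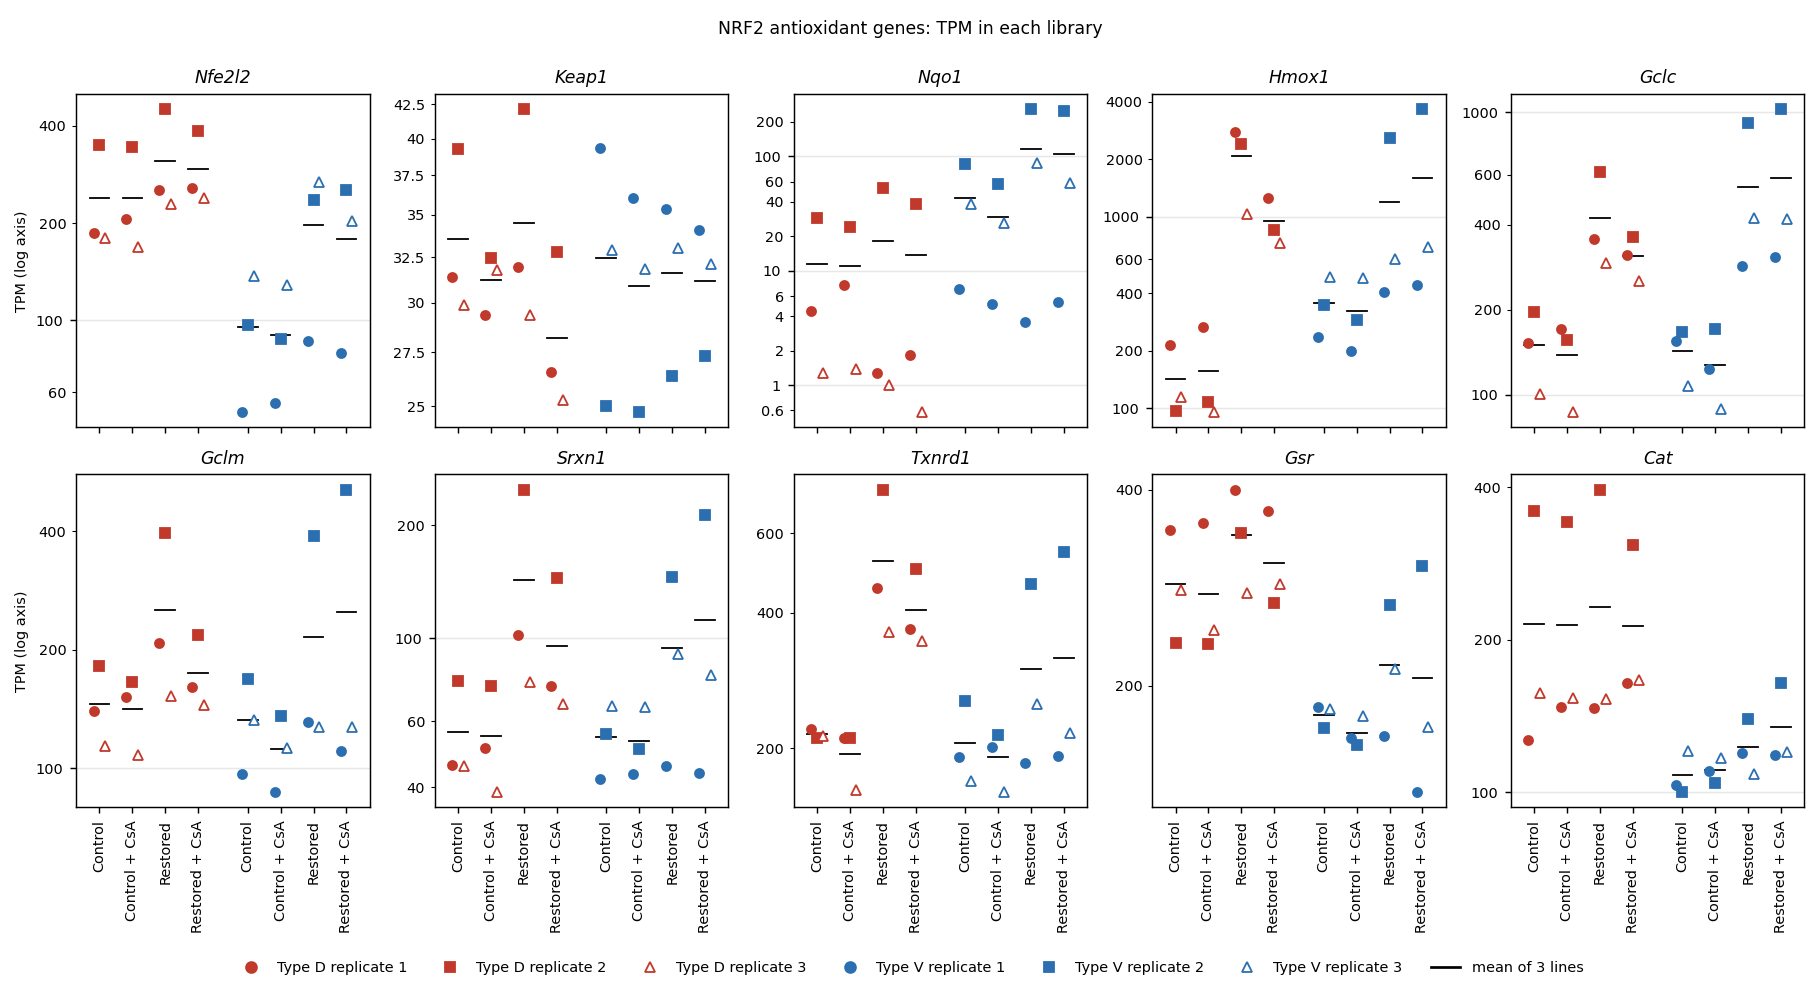
TPM (log axis, a scale of its own in each panel) of the 10 genes in each of the 24 libraries, by treatment, with Type D in red and Type V in blue, a symbol for each line and a bar at the mean of 3 lines. Hmox1 stands at 1039 TPM or more in the 3 Type D Restored libraries and at 215 TPM or less in Type D Control, and in Type V the highest Restored library is replicate 2 for 8 of the 10 genes.

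The comparison of Restored with Control cells asks how the pathway differed after restoration. In Type D cells Hmox1, Gclc and Txnrd1 rose. Hmox1 went from 215 to 2793 TPM in replicate 1, from 96.9 to 2408 TPM in replicate 2 and from 115 to 1039 TPM in replicate 3. These are ratios of 13, 24.9 and 9.01, and every Restored library was above every Control library. The change was 3.83 log2 (SE 0.71, limma, adjusted p = 0.00109). Such values are bulk levels, in which more cells with a transcript and more of it per cell cannot be told apart.

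Gclc encodes the catalytic subunit of glutamate-cysteine ligase, the rate-limiting enzyme of glutathione synthesis. In Type D it went from 153, 195 and 101 TPM in Control to 355, 616 and 293 TPM in Restored. The groups did not overlap, and the change was 1.47 log2 (SE 0.45, limma, adjusted p = 0.0367). Gclm, the modifier subunit of the same enzyme, went from 140, 182 and 114 TPM to 209, 396 and 153 TPM, higher in each line with groups that overlapped, and the change of 0.71 log2 was not called (limma, adjusted p = 0.422).

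Txnrd1, the cytosolic thioredoxin reductase, was nearly the same in the 3 Type D Control libraries, at 221, 211 and 213 TPM, and was at 453, 751 and 363 TPM in Restored. The change was 1.21 log2 (SE 0.35, limma, adjusted p = 0.029), with no overlap. Srxn1, the sulfiredoxin that repairs over-oxidized peroxiredoxins, went from 45.9, 77 and 45.8 TPM to 102, 249 and 76.3 TPM. Its change of 1.18 log2 did not pass (limma, adjusted p = 0.157), and all 3 lines were higher in Restored.

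The regulators and the remaining targets were not called in Type D. Nfe2l2 was 0.38 log2 higher in Restored (limma, adjusted p = 0.724), at 253, 449 and 229 TPM, and higher in each line. Keap1, at 32, 42.1 and 29.4 TPM, differed from Control by 0.03 log2 (95% interval -0.37 to 0.43). Gsr and Cat differed by 0.25 and 0.10 log2. Nqo1, which encodes a quinone reductase and is often used as a readout of NRF2, went from 4.44 to 1.29 TPM in replicate 1, from 28.9 to 52.4 TPM in replicate 2 and from 1.27 to 1.01 TPM in replicate 3, so the lines did not move together.

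In Type D 3 of the 10 genes were called higher and none lower, where 6.93% of all tested genes were called in either direction. The median change of the 10 was 0.54 log2 and that of all tested genes 0.07 log2. Restored and Control groups did not overlap for 3 of the 10, against 33% of all tested genes. Counting only groups higher in Restored, the share of all tested genes was 20%. All 3 Type D lines were higher in Restored for 6 of the 10, against 39.2% of all tested genes. The 4 libraries of a line are paired, and with the cell line as a block in the fit Srxn1 was called too (limma, adjusted p = 0.00426), giving 4 of 10 where 11.2% of all tested genes were called. In that fit Gclm (0.71 log2) and Nfe2l2 (0.38 log2) also had an adjusted p under 0.05 (limma, 0.042 and 0.0473). They were not called because their changes were under 1 log2. Each of the 3 calls depended on the lines at hand. Without replicate 2 (4711-18) none was called, with Hmox1 at 3.43 log2 (limma, adjusted p = 0.0517), and without replicate 1 or 3 only Hmox1 was.

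In Type V cells Gclc rose and no other member passed the test. Gclc went from 155, 167 and 107 TPM in Control to 286, 918 and 423 TPM in Restored. The groups did not overlap, and the change was 1.77 log2 (SE 0.45, limma, adjusted p = 0.0149). Such separation was found for 1 of the 10 genes, against 22.3% of all tested genes. All 3 Type V lines were higher in Restored for 4 of the 10, against 32.4% of all tested genes. Gclc was the only 1 of the 10 called, where 5.29% of all tested genes were called. The median change was 0.59 log2 for the 10 and 0.05 log2 for all tested genes. Without replicate 3 (4716-14) the Gclc change was 1.66 log2 and not called (limma, adjusted p = 0.116).

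Hmox1 in Type V went from 236 to 406 TPM in replicate 1, from 348 to 2593 TPM in replicate 2 and from 486 to 601 TPM in replicate 3. The ratios were 1.72, 7.46 and 1.23, so a single line stood far above the others. The mean change was 1.33 log2 (SE 0.71, limma, adjusted p = 0.294), and with the cell line as a block it was called (limma, adjusted p = 0.0392), together with Gclc, where 8.66% of all tested genes were called. Without replicate 2 the Hmox1 change was 0.54 log2 (limma, adjusted p = 0.733).

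Replicate 2 of Type V, line 4716-10, had the highest change among the Type V lines for all 10 genes. Gclm went from 168 to 389 TPM in that line, against 96.5 to 131 TPM in replicate 1 and 132 to 127 TPM in replicate 3. Srxn1 went from 55.6 to 146 TPM, against 42.3 to 45.7 TPM and 65.8 to 90.8 TPM. Nqo1 went from 85.4 to 258 TPM in replicate 2 and from 38 to 88.2 TPM in replicate 3, but from 6.89 to 3.59 TPM in replicate 1. Txnrd1 was at 191, 255 and 170 TPM in Control and 185, 462 and 251 TPM in Restored. The median change of the 10 genes within a line was 0.16, 1.24 and 0.38 log2 in replicates 1, 2 and 3, while that of all tested genes was between 0.01 and 0.06 log2 in these lines.

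Nfe2l2 was higher in each Type V line with restoration, at 86.4, 236 and 268 TPM, by 0.72, 1.28 and 0.96 log2. The mean of 0.99 log2 lay just under the size needed for a call, in a limma fit with the block (adjusted p = 8.89e-05) as in the fit without it (adjusted p = 0.258). Keap1 differed by -0.02 log2 (95% interval -0.42 to 0.37), at 35.3, 26.4 and 33 TPM in Restored. Gsr, at 167, 266 and 212 TPM, and Cat, at 120, 140 and 109 TPM, differed from Control by 0.23 and 0.18 log2 and were not called.

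**Figure D2:**
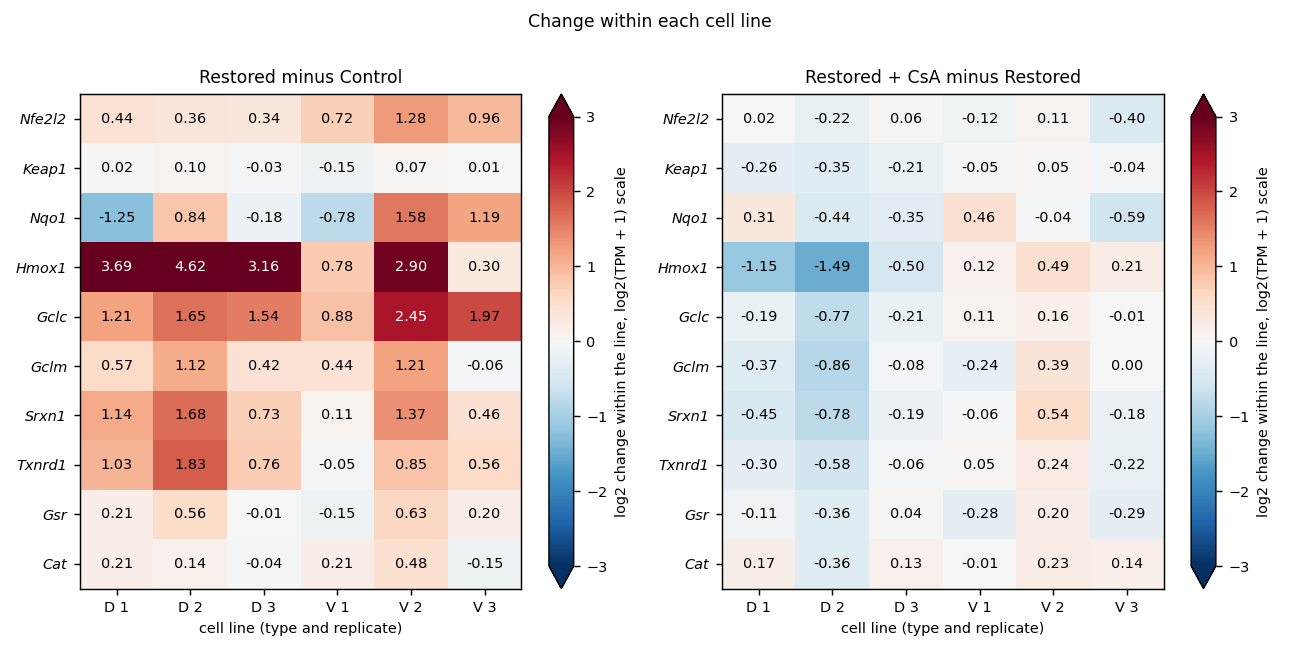
Log2 change within each line (columns, Type D and Type V with replicates 1 to 3) of the 10 genes (rows), on the log2(TPM + 1) scale, for Restored minus Control on the left and Restored + CsA minus Restored on the right, with red for higher, blue for lower and colors saturated beyond 3 log2. In the left panel the column V 2 has the largest value of the Type V lines in all 10 rows, and in the right panel Hmox1 is lower in the 3 Type D lines and higher in the 3 Type V lines.

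The difference between the types in the response to p53 was tested directly. No member was called, where 0.0284% of all tested genes were called and 1 of the 10 had an unadjusted p under 0.05. That gene was Hmox1, with a change 2.50 log2 greater in Type D (SE 1.00, limma, adjusted p = 1). With the cell line as a block the same difference was called (SE 0.69, limma, adjusted p = 0.0451), where 2.44% of all tested genes were. Gclc, called in each type, had a difference of -0.30 log2 between the types (95% interval -1.63 to 1.03), an interval that leaves room for either sign. For Txnrd1, called in Type D alone, the difference was 0.75 log2 (95% interval -0.30 to 1.80, limma, adjusted p = 1), and a difference between the types was not shown.

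The same comparison was made in cells given CsA. In Type D, Hmox1 went from 268, 108 and 95.5 TPM in Control + CsA to 1261, 857 and 733 TPM in Restored + CsA, with no overlap. The change was 2.71 log2 (SE 0.71, limma, adjusted p = 0.0197) and the ratios were 4.71, 7.96 and 7.67. It was the only call, where 5.41% of all tested genes were called, and with the block it had an adjusted p of 0.000393 by limma. Without replicate 1, 2 or 3 the change was 2.95, 2.58 and 2.61 log2 and was not called (limma, adjusted p = 0.0768, 0.181 and 0.177). Gclc (171, 156 and 86.6 TPM to 311, 361 and 254 TPM) and Txnrd1 (211, 211 and 162 TPM to 367, 501 and 347 TPM) had groups that did not overlap. Their changes were 1.20 and 1.05 log2 and were called with the block (limma, adjusted p = 0.00134 and 0.00156), where 9.69% of all tested genes were called, and not without it (limma, adjusted p = 0.109 and 0.0745). Srxn1 was at 50.9, 74.7 and 38.8 TPM without and 74.5, 144 and 67 TPM with restoration, Gclm at 151, 165 and 108 TPM and 161, 218 and 144 TPM, and neither was called. Groups did not overlap for 3 of the 10 genes in this comparison, against 31.9% of all tested genes.

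In Type V under CsA, Gclc went from 123, 171 and 88.7 TPM to 307, 1023 and 419 TPM, a rise of 2.04 log2 (SE 0.45, limma, adjusted p = 0.0063) with no overlap. It was the only call, where 4.61% of all tested genes were called, and it was lost without replicate 3 at 1.94 log2 (limma, adjusted p = 0.0783). Hmox1 went from 199, 288 and 480 TPM to 443, 3642 and 697 TPM and was called with the block (1.78 log2, limma, adjusted p = 0.0092), where 7.97% of all tested genes were. Replicate 2 again had the highest change for all 10 genes, with a median of 1.72 log2 against 0.08 and 0.36 log2 in replicates 1 and 3. Cat was at 110, 104 and 117 TPM before and 119, 164 and 120 TPM after, which did not overlap but differed by 0.26 log2 only. Groups did not overlap for 2 of the 10 genes here, against 19.5% of all tested genes.

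**Figure D3:**
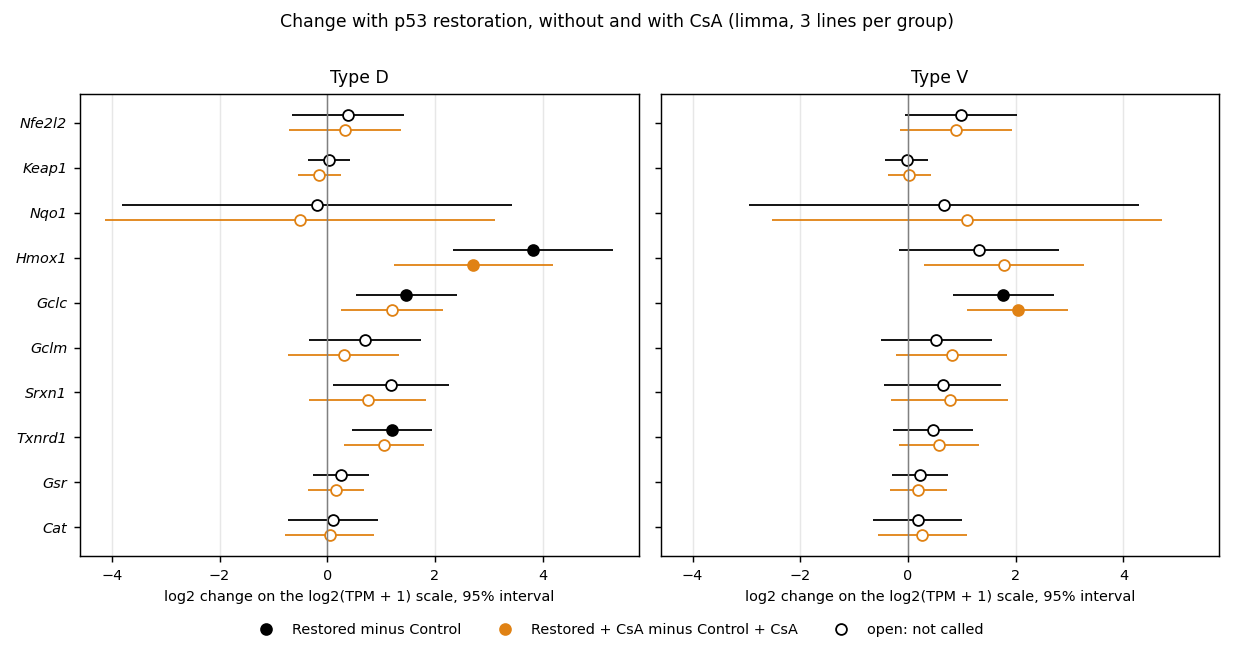
Log2 change with p53 restoration on the log2(TPM + 1) scale for the 10 genes in Type D (left) and Type V (right), without CsA (black) and with CsA (orange); lines are 95% intervals of the limma fit with 3 lines per group, and filled points passed the threshold. Hmox1 (3.83 log2), Gclc (1.47 log2) and Txnrd1 (1.21 log2) are filled in Type D without CsA, and Gclc alone is filled in Type V.

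CsA was also compared with its absence. The counts of unadjusted p below come from the fit without the cell line, which sets changes within lines against the spread between lines. A gene that did not pass is therefore not shown to be unchanged by CsA. In cells without restoration none of the 10 genes was called by limma in Type D or Type V, where 0% of all tested genes were called and 0 of the 10 had an unadjusted p under 0.05 in either type. Over all tested genes 114 and 54 had one. In Type V, Keap1, Nqo1, Hmox1, Gclm and Gsr were lower in each of the 3 lines, 5 genes against 21.5% of all tested genes. In Type D only Txnrd1 was lower in each line, 1 gene against 20.4% of all tested genes, and in replicate 1 of Type D 8 of the 10 were higher. For Nqo1 the lines went from 6.89, 85.4 and 38 TPM to 5.11, 56.9 and 26 TPM.

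In restored Type D cells the mean change with CsA was negative for each of the 10 genes, and none was called. Hmox1 was at 2793, 2408 and 1039 TPM in Restored and at 1261, 857 and 733 TPM in Restored + CsA, lower by 54.8%, 64.4% and 29.5% in the 3 lines. The groups overlapped, since replicate 1 with CsA was above replicate 3 without it, and the change of -1.05 log2 did not pass (SE 0.71, limma, adjusted p = 1, and adjusted p = 0.39 with the block). Gclc was lower by 12.3%, 41.4% and 13.6%, Srxn1 by 27.1%, 41.9% and 12.2%, Gclm by 22.7%, 45.1% and 5.62% and Txnrd1 by 18.9%, 33.3% and 4.32%, so in each of them replicate 2 (4711-18) had the lowest ratio. Keap1 was lower in the 3 lines as well, by -0.27 log2 on average. These 6 genes of 10 were lower in each Type D line, against 18.6% of all tested genes. The median over the 10 was -0.29 log2 and over all tested genes 0.00 log2, and 0.0142% of all tested genes were called. By limma, without the cell line in the fit, 0 of the 10 had an unadjusted p under 0.05, against 229 of all tested genes.

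In restored Type V cells no member was called by limma (0% of all tested genes), 0 of the 10 and 100 of all tested genes had an unadjusted p under 0.05, the median over the 10 was 0.04 log2, and the members split, with 6 higher and 4 lower on average. Hmox1 was higher with CsA in each line, at 443, 3642 and 697 TPM against 406, 2593 and 601 TPM, by 0.28 log2 on average. Hmox1 thus went down in the 3 Type D lines and up in the 3 Type V lines. A test of that difference, added after these values were seen, gave -1.32 log2 (SE 1.00, 95% interval -3.42 to 0.78, limma, adjusted p = 1, and adjusted p = 0.917 with the block). No member was called in it, 0% of all tested genes were, and 0 of the 10 and 102 of all tested genes had an unadjusted p under 0.05. In replicate 2 of Type V 9 of the 10 genes were higher with CsA, with Srxn1 at 212 against 146 TPM and Gclm at 511 against 389 TPM, while in replicate 2 of Type D all 10 were lower.

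The 10 genes differed in how closely they followed each other over the 24 libraries. The highest correlations on the log2 scale were between Gclm and Srxn1 (r = 0.895), Srxn1 and Txnrd1 (r = 0.868) and Gclm and Txnrd1 (r = 0.84). After each line's own mean was removed, Hmox1 and Txnrd1 had r = 0.957, Srxn1 and Txnrd1 r = 0.952 and Hmox1 and Srxn1 r = 0.943, whereas Keap1 and Hmox1 had r = 0.0579. These are descriptions over libraries that share lines and treatments, and carry no test. Nfe2l2, by the same measure, was closest to Gclc (r = 0.93).

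For the 3 genes with the widest range of group means, the genes of most similar pattern over the 24 libraries were sought. For Hmox1 these were Zfand2a (r = 0.962), Rab43 (r = 0.926) and Zfp263 (r = 0.902). For Nqo1 they were Nudt9 (r = 0.899), Mnt (r = 0.898) and Sall1 (r = 0.898), and for Gclc B3galnt2 (r = 0.906), Tnfrsf1a (r = 0.889) and Ckmt1 (r = 0.887).

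Further genes of the pathway and of antioxidant defence were read in 7 lists of 81 genes in all, not all of which were tested. With restoration in Type D, 1 of 12 NRF2 regulators was called, Sqstm1, which encodes the autophagy receptor p62 that binds KEAP1. It went from 618, 596 and 539 TPM to 1944, 2585 and 1014 TPM, by 1.56 log2 (limma, adjusted p = 0.0281). Of 16 quinone, heme and iron genes 2 were called: Osgin1, an oxidative stress induced growth inhibitor, rose by 2.03 log2 (limma, adjusted p = 0.027) from 106, 117 and 101 TPM to 591, 483 and 307 TPM, and Slc48a1, a heme transporter, by 1.41 log2 (limma, adjusted p = 0.0415) from 199, 124 and 166 TPM to 481, 438 and 368 TPM. None of 19 tested glutathione genes, 10 thioredoxin system genes, 6 NADPH genes or 8 other antioxidant genes was called, in a fit that called 6.93% of all tested genes. With the cell line as a block, which called 11.2%, the other lists had 17 called genes in place of 6. The added genes were Maff, Mafk, Akr1b8, Blvrb, Ephx1, Abcc4, Slc3a2 and Prdx5, higher by 1.02 to 1.33 log2, and Gstm1 (-1.41 log2), Mgst3 (-1.01 log2) and Idh1 (-1.08 log2), lower (limma, adjusted p = 0.000695, 0.00135 and 0.00234). Gstm1, a cytosolic glutathione transferase, went from 214, 1207 and 217 TPM to 82.9, 354 and 99.9 TPM, lower in each line.

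In Type V restoration called 1 of the 16 quinone, heme and iron genes, where 5.29% of all tested genes were called, and none in the other NRF2 lists just named. It was Ephx1, the microsomal epoxide hydrolase, at 20.2, 188 and 153 TPM in Control and 377, 991 and 839 TPM in Restored, a rise of 3 log2 (limma, adjusted p = 0.00708). With the block, which called 8.66% of all tested genes, Abcc4 (1.18 log2) and Akr1c13 (1.35 log2) were called higher and Idh1 (-1.25 log2) lower as well (limma, adjusted p = 0.00493, 0.00364 and 0.000902). Osgin1 in Type V was at 32.2, 42.7 and 66.2 TPM in Control and 20.2, 100.3 and 62 TPM in Restored. Without the block no thioredoxin system gene was called, and their median changes were -0.39 log2 in Type D and -0.39 log2 in Type V, with 1 of 10 positive in each. NADPH genes had medians of -0.53 and -0.32 log2, beside 0.07 and 0.05 log2 for all tested genes.

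Of 7 tested p53-linked antioxidant genes, 3 were called higher in each type, where 6.93% and 5.29% of all tested genes were called. These 3 were the same genes in Type D and Type V: Cdkn1a, the cell cycle inhibitor p21, by 4.17 and 4.80 log2 (limma, adjusted p = 3.46e-08 and 4.9e-09), Sesn2, a stress-induced sestrin, by 3.11 and 2.39 log2 (limma, adjusted p = 5.58e-06 and 0.000145), and Aldh4a1, a mitochondrial dehydrogenase of proline breakdown, by 1.71 and 1.67 log2 (limma, adjusted p = 1.49e-05 and 3.02e-05). The medians of the 7 were 0.21 log2 in Type D and -0.01 log2 in Type V. The difference between the types was 0.72 log2 for Sesn2 (95% interval -0.32 to 1.75) and was not called (limma, adjusted p = 1). Under CsA the same 3 genes were called higher in each type, where 5.41% and 4.61% of all tested genes were called. Sesn2 rose by 1.87 log2 in Type D and 2.42 log2 in Type V (limma, adjusted p = 0.00138 and 0.000128). Its Type D means were 18.3 TPM in Control, 42.1 TPM in Control + CsA, 165 TPM in Restored and 156 TPM in Restored + CsA. In Type V the same means were 17.7, 22.4, 90.8 and 107 TPM. The other list genes called under CsA were Gpx8 in Type D (1.06 log2, limma, adjusted p = 0.00724) and Ephx1 in Type V (2.82 log2, limma, adjusted p = 0.0126). With the block, which called 9.69% of all tested genes, the 81 listed genes had 16 calls in place of 4 in Type D under CsA. Among them were Gstm1 (-1.70 log2), Gstm2 (-1.31 log2), Gls2 (-1.25 log2) and Idh1 (-1.23 log2), lower, and Osgin1 (1.42 log2) and Slc48a1 (1.07 log2), higher. In Type V under CsA the listed genes had 10 calls in place of 4, where the block called 7.97% of all tested genes.

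**Figure D4:**
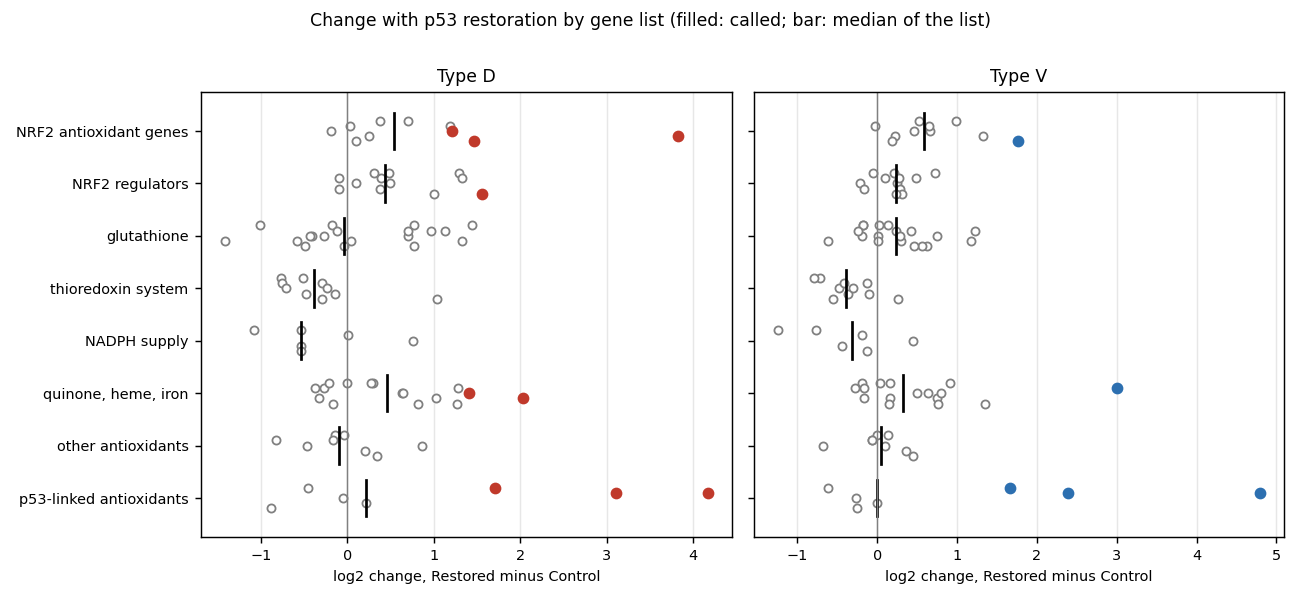
Log2 change with p53 restoration (horizontal axis) for each tested gene of the 8 lists (vertical axis) in Type D (left) and Type V (right); filled points were called, open points were not, and the bar is the median of the list. The 10 NRF2 antioxidant genes have medians of 0.54 and 0.59 log2, and the thioredoxin system has -0.39 log2 in each type.

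Between the types in Control, 10 of the 81 genes of these lists were called, where 8.83% of all tested genes were. The number was 3 without Type D replicate 1, 5 without Type D replicate 3, 4 without Type V replicate 3 and 2 with the compared groups alone, and 6 with no filter. Type D held more Mgst3, a microsomal glutathione transferase (1.60 log2, limma, adjusted p = 0.00761), Me1, the NADPH-making malic enzyme (1.76 log2, adjusted p = 2.83e-07), Tkt, a transketolase (1.29 log2, adjusted p = 0.0128), Ugdh, a dehydrogenase of UDP-glucose (1.72 log2, adjusted p = 1.5e-06), and Maff, a small MAF partner of NRF2 (1.40 log2, adjusted p = 0.0405). Type D held less Bach2, a BACH repressor (-1.46 log2, limma, adjusted p = 0.0397), Sod3, the extracellular superoxide dismutase (-4.43 log2, adjusted p = 0.0386), Gpx8, a glutathione peroxidase (-1.03 log2, adjusted p = 0.00693), and Sesn1, a sestrin of the p53-linked list (-1.17 log2, adjusted p = 0.0394), while Cdkn1a was higher (1.07 log2, adjusted p = 0.0245). In Restored cells 9 of the 81 genes of the lists were called (9.44% of all tested genes), 4 without Type D replicate 1, 18 without Type V replicate 2 and 4 with the compared groups alone. There Slc7a11, the cystine transporter that feeds glutathione synthesis, was at 83.2, 166 and 41.1 TPM in Type D and 3.14, 40.6 and 8.90 TPM in Type V (2.81 log2, limma, adjusted p = 0.0162), and Osgin1 was 3.12 log2 higher in Type D (adjusted p = 0.00143). Maff (2.24 log2), Me1 (1.35 log2), Ugdh (1.86 log2), Tkt (1.20 log2) and the quinone reductase gene Nqo2 (1.09 log2) were higher there too, and Sod2 (-1.32 log2) and Sod3 (-4.22 log2) were lower (limma, adjusted p from 5.67e-07 for Ugdh to 0.0448 for Sod3).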

How the data were processed

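The authors deposited TPM values for 24 libraries, used as deposited; HISAT2 is named in the submitters' processing notes and kallisto or HISAT2 in the study's methods, and mm10 and GRCm39 are both written as the build. TPM sums to the same total in each library, so sequencing depth is unknown, no counting interval can be given, and a rise in abundant transcripts lowers others. Libraries were single-end and stranded.

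Values were analysed as log2(TPM + 1), a scale that understates changes of low genes. Genes at 1 TPM or more in at least 3 libraries (14104) were fitted with limma 3.58.1 in R 4.3.3 (8 group means, eBayes with trend, two-sided), adjusted by Benjamini-Hochberg within each of 14 comparisons, and called at an adjusted p under 0.05 with a change of at least 1 log2. Scripts were tested on simulated data. Libraries of a line are paired by the labels' cell line: after group means were removed, same-line pairs had r of 0.599 to 0.929 (36 pairs) and pairs of other lines -0.675 to 0.0438 (72 pairs). The block cannot be used between types. Libraries of a group had r of 0.883 to 0.978, 34.7 to 42.9% of genes were listed at 0, and 0 columns were identical.

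The difference of the CsA change between types was a comparison added after values were seen. The 10 genes, the lists, the motif and the rules were chosen with earlier results of these data known. All 10 are given; from other lists, called genes were named, at most 4 per list and comparison, other genes being named after their values were seen. Tp53inp1 was not matched. Genes of similar pattern are the 3 with the highest Pearson r, members left out. Promoter windows and cores are RefSeq on GRCm38.p6 and positions GENCODE M21, which may differ from the models behind the table. The alternatives tried were another pseudocount (0.1), testing without a filter, a minimum of 5 TPM (11785 genes), quantile and median-ratio scaling, the cell line block, the compared groups alone and each line left out. Figures used Python and matplotlib.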

Additional observations from a re-analysis of the deposited data

Results flagged for a closer look

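The change of Hmox1 with p53 restoration differed between Type D and Type V by 2.50 log2 in a test of the difference itself, with the cell line as a block (limma, adjusted p = 0.0451), and not without the block (adjusted p = 1). Hmox1 was higher in Restored in 3 of 3 lines of each type. Within Type V the changes were 0.78, 2.90 and 0.30 log2 in replicates 1, 2 and 3, and within Type D 3.69, 4.62 and 3.16 log2, so the highest Type V line lay below the lowest Type D line.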

How the results depend on the processing

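Over 1780 values of the 10 genes under 13 alternatives, 1749 stayed on the same side of the threshold, 20 lost a call and 11 gained one; 74 values not called in either fit had another sign and no called value did. The number of the 10 genes called with restoration in Type D, 3 in the reported fit, was 4 with the replicate block (Srxn1 being added), 1 under median-ratio scaling, 1 with the compared groups alone and 0 to 3 with a line left out. In Type V it was 1 in the reported fit, 2 with the replicate block, 0 with the compared groups alone and 0 to 1 with a line left out (0 without replicate 3 of Type V). Under CsA it was 1 in Type D, 3 with the block, 2 with the compared groups alone and 0 to 3 with a line left out (3 without replicate 2 of Type V, Gclc and Txnrd1 being added), and 1 in Type V, 2 with the block, 0 with the compared groups alone and 0 to 1 with a line left out. For the difference in response between types it was 0, and 1 with the block. Between types in Restored it was 0 to 2 with a line left out. The compared groups alone leave fewer libraries for the spread, and for the other alternatives the cause was not tested. Gclc in Type D was also lost with no filter (adjusted p = 0.0548) and without replicate 3 of Type V (adjusted p = 0.0596). Among the 10 genes the block changed no call besides those given. Among the 81 other listed genes with restoration it called 17 in place of 6 in Type D and 7 in place of 4 in Type V. Of all tested genes the block called 11.2% in Type D and 8.66% in Type V. Depth is unknown, so low levels such as Nqo1 in Type D carry an error that cannot be stated.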
